A study of Mus musculus with 6 samples.

Results

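The interferon response and antigen presentation genes of neural stem cells (NSCs) were analyzed as a list of 35 genes chosen by name, and each of the 35 has a row among the 53378 genes with a value in every library. The NSCs came from the telencephalic cortex of *Tbl1xr1* flox/flox mouse embryos at E14.5 and were grown as neurospheres, and *Tbl1xr1* encodes a subunit of the NCOR corepressor complexes. Their lentivirus carried GFP only in the control (3 libraries, replicates 1, 1_1 and 2) and Cre-GFP in the other group (3 libraries, replicates 2, 2_2 and 3, here the Cre-labelled libraries). Cre removes the floxed exon 5, and GFP+ cells were sorted in both groups. All 6 libraries thus share the floxed alleles and a lentivirus, and uninfected cells were not analysed here. Which embryo or culture each library came from is not given in the sources used here, so that p-values measure the spread between these libraries, which may be technical.

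Interferons are secreted proteins through which cells warn each other of viruses. Sensors of viral RNA or of DNA in the cytosol switch on interferon genes, and the secreted interferon acts through receptors and JAK kinases on transcription factors such as STAT2 and IRF9, which bind the interferon-stimulated response element (ISRE) of target genes. The induced proteins block viral replication, and the same signals raise the class I molecules that show peptides of the cell to T cells.

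Values are normalized counts, the reads on a gene divided by a size factor of its library. Depth was 7510615 to 11161497 reads on genes in control and 11893230 to 14828100 in the Cre-labelled libraries, so the groups differed in depth. The targeted gene, *Tbl1xr1*, was not lower where Cre was labelled, with 2522, 2189.8 and 2721 normalized counts in control and 3774, 3463 and 2905 in the Cre-labelled libraries (log2 fold change 0.45 ± 0.14 (SE), adjusted p = 0.06 with limma). It was past the threshold as higher with DESeq2 (adjusted p = 0.0398) and without Cre replicate 3 (0.0234, limma), and exon 5 was not measured on its own. The paper states that the sorted cells were checked for genotype and for loss of the mRNA and protein, and the counts of the whole gene do not address exon 5. All 10 markers of neural stem cells were read at a mean of at least 10. Of these 2, *Nes* and *Sox1*, fell past the threshold with limma and 0 rose, where 5.22% of all tested genes fell and 4.74% rose. *Vim* was lower and *Pax6* and *Slc1a3* were higher without overlap but did not pass, where 30.3% of all tested genes did not overlap. Of 14 microglia and macrophage markers, 11 never had more than 3 reads in a library, and 6 (*C1qa*, *C1qb*, *C1qc*, *Tmem119*, *Trem2* and *Tyrobp*) were at 0 in all 6 libraries. The summed level of that list was 178 to 217 normalized counts in control and 177 to 286 in the Cre-labelled libraries. Most of it was 1 gene, *Csf1r*, with 201, 154 and 195 normalized counts in control and 162, 264 and 239 in the Cre-labelled libraries. The 7 endothelial markers summed to 32.0 to 43.9 in control and 14.3 to 22.9 in the Cre-labelled libraries, with *Cdh5* and *Cldn5* at 0. The 1 tested, *Kdr*, was lower without overlap, with means of 24.5 ± 9.02 and 8.74 ± 1.71 normalized counts (SD, n = 3). Its log2 fold change was -1.34 ± 0.42 (SE), and it did not pass (adjusted p = 0.0677 with limma). The 7 fibroblast and mural markers summed to 2.75 to 7.31 and 4.16 to 21.5, with *Col1a2* and *Pdgfrb* at 0. *Lum* had means of 3.59 and 6.43 normalized counts and *Col1a1* of 0 and 4.67, and neither was tested. The part of such cells in the results was not tested, and in bulk samples fewer cells of a type and less RNA per cell cannot be told apart.

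The ISRE was searched as GAAA, any 2 bases, then GAAA again, on both strands of the 250 bases before each RefSeq start site (GRCm38.p6). It was found for 9 of the 25 list genes that have such a window (*Stat2*, *Ifit1*, *Ifit3*, *Oas1a*, *Rsad2*, *Bst2*, *Isg15*, *Cxcl10* and *B2m*), and for 3.46% of all 27025 genes with a window. Matches may overlap, as those of *Isg15* and *Bst2* do. The 160 bases before the start are shown for genes that held the motif and were near 0 (*Isg15*, *Ifit1* and *Ifit3*). They are also shown for *Bst2* and *B2m*, which held it and were well read. *Ifit2* was well read and had no ISRE match in either of its windows, the first of which is shown. Both windows belong to starts after the gene start of *Ifit2* (chr19:34550550), so the bases before that gene start were searched only in part. The stretch of *Ifit3* likewise lies inside the span of its gene (chr19:34583119-34588982). Capitals mark ISRE matches and, in *B2m*, also a kappa B site, searched as GGGA, any base, then TTTCC, which 0.414% of all genes with a window hold. The gamma-activated site, searched as TTC, any 3 bases, then GAA, is not marked. It was found for 5 of the 25 list genes (*Irf1*, *Ifit2*, *Oas1a*, *Bst2* and *Eif2ak2*) and for 8.13% of all genes with a window. In *Ifit2* it began 241 bases before the first start, outside the stretch shown. Each sequence runs 5′ to 3′ on the strand of its gene, and a match on the other strand reads as its reverse complement. The stretches are chr4:156200819-156200978, minus strand (*Isg15*), chr19:34640729-34640888, plus strand (*Ifit1*), chr19:34583369-34583528, plus strand (*Ifit3*), chr8:71537473-71537632, minus strand (*Bst2*), chr2:122147527-122147686, plus strand (*B2m*) and chr19:34550534-34550693, plus strand (*Ifit2*).
Isg15: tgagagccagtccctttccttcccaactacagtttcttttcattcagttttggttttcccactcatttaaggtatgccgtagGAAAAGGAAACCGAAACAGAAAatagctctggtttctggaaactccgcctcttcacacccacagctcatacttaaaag
Ifit1: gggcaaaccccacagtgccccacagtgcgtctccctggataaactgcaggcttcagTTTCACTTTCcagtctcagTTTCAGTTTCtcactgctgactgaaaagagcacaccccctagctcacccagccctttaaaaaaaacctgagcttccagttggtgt
Ifit3: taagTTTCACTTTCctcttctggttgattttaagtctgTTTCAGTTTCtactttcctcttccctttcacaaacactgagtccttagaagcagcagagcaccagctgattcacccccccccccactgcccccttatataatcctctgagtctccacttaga
Bst2: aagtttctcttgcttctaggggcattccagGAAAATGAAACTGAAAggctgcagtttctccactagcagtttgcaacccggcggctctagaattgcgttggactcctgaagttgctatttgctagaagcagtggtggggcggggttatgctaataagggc
B2m: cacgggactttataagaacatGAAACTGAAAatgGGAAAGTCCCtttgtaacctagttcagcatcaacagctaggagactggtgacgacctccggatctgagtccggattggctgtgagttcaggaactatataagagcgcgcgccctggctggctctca
Ifit2: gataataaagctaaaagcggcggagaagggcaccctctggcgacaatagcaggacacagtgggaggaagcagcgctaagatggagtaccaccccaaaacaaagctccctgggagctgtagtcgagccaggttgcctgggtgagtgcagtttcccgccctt
A match of letters describes the window and does not show that a factor binds there.

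The list held both silent and well-read genes. A mean of at least 10 normalized counts, the limit for testing, was reached by 20 of the 35 genes. Nearest to it were *Tap2* (8.99) and *Trim25* (7.85) below and *Ifih1* (12.7) and *Parp14* (13.5) above. Of the 15 genes below it, 9 never had more than 3 reads in a library, namely *Dhx58*, *Nlrc5*, *Ifit1*, *Ifit3*, *Mx1*, *Oas1a*, *Oas2*, *Oasl2* and *Xaf1*. *Mx1*, a GTPase that blocks influenza viruses, and *Oas1a*, which makes the messenger that activates RNase L, had 0 of 65366433 reads, where a count of 0 allows up to 3 reads. The *Mx1* allele of these mice is not given in the sources used here. *Ifit1*, whose protein binds foreign capped RNA, and *Ifit3*, its partner, had 1 read each in all. *Isg15*, a ubiquitin-like protein, had 3 reads over the control libraries and 11 over the Cre-labelled libraries. The promoter stretches shown for *Ifit1*, *Ifit3* and *Isg15* thus belong to genes that were hardly read in either group. *Ifit3* shared 51.5% and *Oas1a* 53.0% of the 50-base stretches of their transcripts with another gene, so that their reads could have been split or left out in counting. The partners of *Oas1a*, *Oas1g* and *Oas1b*, also had 0 reads in every library.

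**Figure D1:**
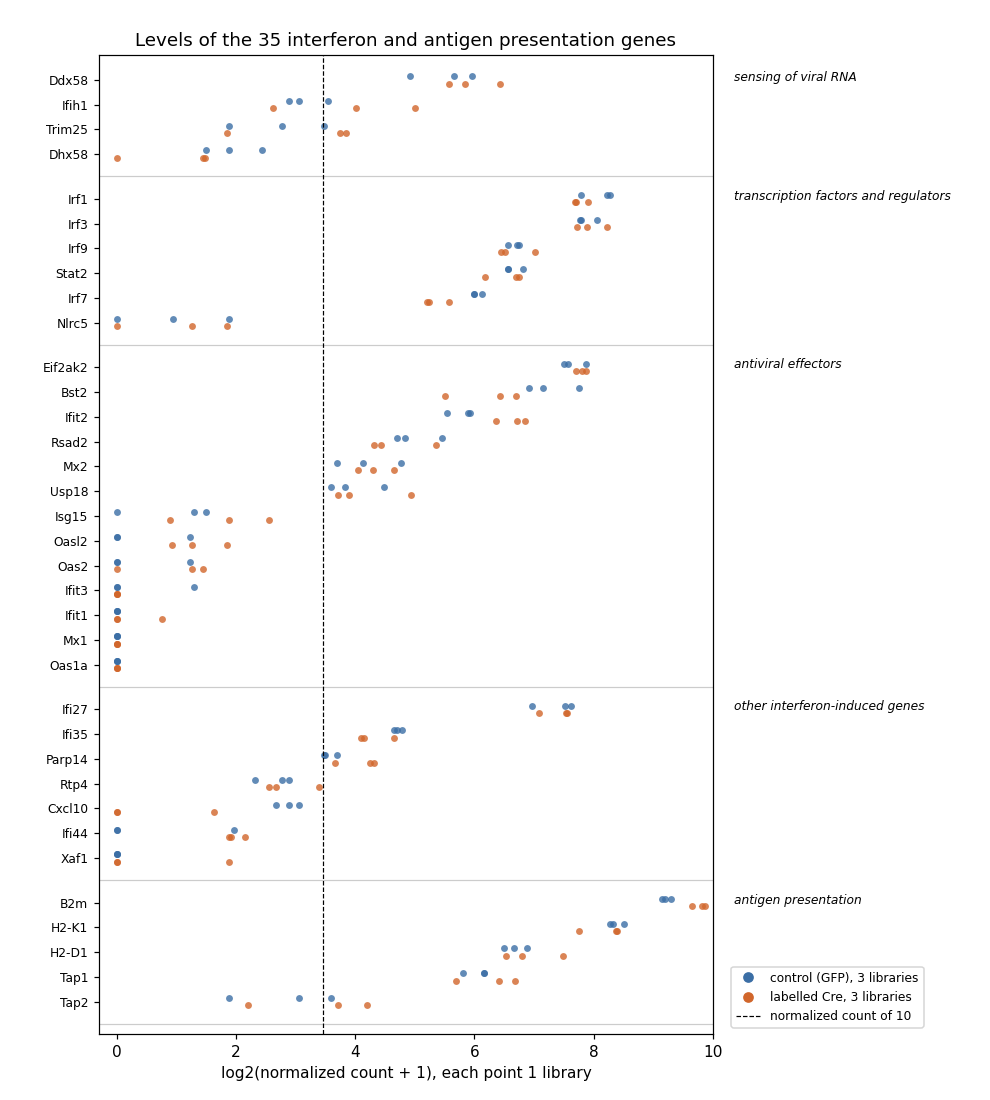
Level of each of the 35 genes in each library, as log2(normalized count + 1) on the horizontal axis, grouped by role, with 3 control libraries in blue and 3 Cre-labelled libraries in orange. The dashed line marks a normalized count of 10, and 20 genes have a mean at or above it.

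Divided by exon length, the levels of the 20 well-read genes in control ran from 690.4 normalized counts per kb for *B2m*, the light chain of class I molecules, to 1.16 for *Parp14*, an ADP-ribosyltransferase. After *B2m* came *Bst2* at 208, *H2-K1* at 127 and *Ifi27* at 114 normalized counts per kb. In the Cre-labelled libraries these levels were 1024 for *B2m*, 102 for *Bst2*, 112 for *H2-K1* and 115 for *Ifi27*.

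Between the groups, 2 of the 20 tested genes were higher where Cre was labelled, *B2m* and *Ifit2*, and 0 were lower (limma over 14840 genes, adjusted p-value under 0.05). Of all tested genes 9.96% passed, 4.74% as higher and 5.22% as lower, and 10% of the list did. By unadjusted p-values under 0.05 the list had 2 higher and 2 lower genes, where 25.5% of all tested genes were under that limit. edgeR gave 0 lower genes and DESeq2 gave 1, *Bst2*. The groups did not overlap for 4 of the 20 genes, against 30.3% of all tested genes. A positive log2 fold change was found for 12 genes and a negative one for 8, with a median of 0.10 against -0.00102 over all tested genes. The count of 2 higher genes fell to 0 without control replicate 1, without control replicate 1_1 or with these libraries averaged, and to 1 without any of the other 4 libraries. Over all tested genes the calls in either direction were 558, 704 and 660 in the settings that gave 0, against 1478 in the main fit. They were 643 without control replicate 2, and 2396, 724 and 1437 without Cre replicates 2, 2_2 and 3. Over the 20 genes each library was the highest of the 6 for 3 or 4 genes and the lowest for 2 to 6.

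**Figure D2:**
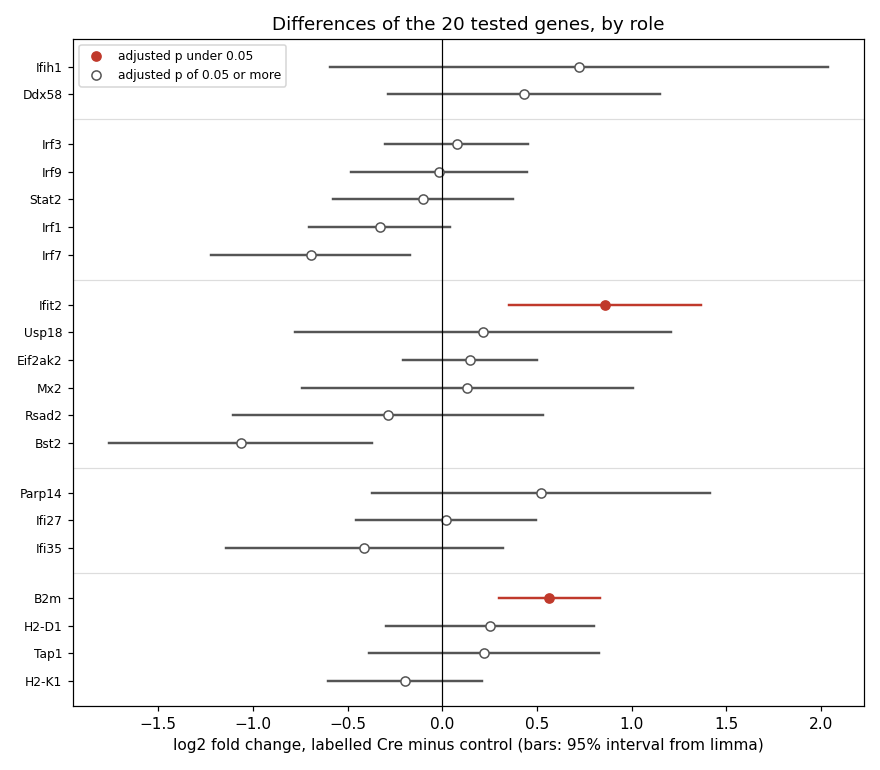
Log2 fold change (Cre-labelled against control) of the 20 tested genes, ordered by role, with 95% intervals from limma. The genes past an adjusted p-value of 0.05 are *Ifit2* at 0.86 and *B2m* at 0.57, and the intervals of *Bst2* and *Irf7* lie below 0.

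For the cytosolic sensors of viral RNA *Ddx58* and *Ifih1* the groups overlapped, and 0 of these 2 tested genes passed with limma, edgeR or DESeq2 or had an unadjusted limma p-value under 0.05. *Ddx58*, which encodes the helicase RIG-I, had 29.4, 61.4 and 49.3 normalized counts in control and 56.1, 46.5 and 85.1 in the Cre-labelled libraries. Its log2 fold change was 0.43 (95% interval from -0.29 to 1.15). *Ifih1*, the related sensor MDA5, had 6.42, 7.31 and 10.7 normalized counts in control and 31.2, 5.17 and 15.2 in the Cre-labelled libraries. Cre replicates 2 and 3 were above every control library and replicate 2_2 was below, and the interval of *Ifih1*, from -0.60 to 2.04, was the widest of the 20. *Trim25*, a ubiquitin ligase that acts on RIG-I, was under the limit with 17 and 36 reads in the groups, and *Dhx58*, the regulatory helicase of the family, had 7 and 4. Corrected for depth, the ratio of Cre-labelled to control was 1.44 for *Trim25* (exact 95% interval from 0.787 to 2.73). For *Dhx58* it was 0.388 (0.0833 to 1.53), and both intervals cover counting error only.

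Of the 5 tested transcription factors 0 passed with limma, edgeR or DESeq2, and 1, *Irf7*, had an unadjusted p-value under 0.05 with limma. Over all tested genes 25.5% were under that unadjusted limit. *Irf7*, which amplifies interferon production, had 62.4, 68.8 and 62.7 normalized counts in control and 36.0, 46.5 and 36.7 in the Cre-labelled libraries. Each Cre-labelled value was below each control value. The means were 64.6 ± 3.59 and 39.7 ± 5.86 normalized counts (SD, n = 3) (log2 fold change -0.70 ± 0.24 (SE), adjusted p = 0.0927 with limma), and over the 16 alternative settings of the processing the adjusted p-value was 0.0883 to 0.234. *Irf1*, a factor of the response to interferon gamma, had 307, 221 and 297 normalized counts in control and 238, 206 and 207 in the Cre-labelled libraries. Control replicate 1_1 lay among the Cre-labelled values (log2 fold change -0.33, 95% interval from -0.70 to 0.04).

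The factors that carry the signal of the type I receptor overlapped between the groups. *Stat2* had means of 99.4 ± 10.2 and 93.7 ± 19.3 normalized counts (SD, n = 3) in control and Cre-labelled libraries. Its partner *Irf9* had 101 ± 6.94 and 101 ± 23.3 normalized counts (SD, n = 3), and *Irf3*, which the sensors activate, 235 ± 26.8 and 249 ± 44.5 normalized counts (SD, n = 3). For these 3 genes, *Eif2ak2* and *Ifi27* the 95% interval excluded a change of 1.5-fold in either direction. A change of 2-fold lay outside the interval for 9 of the 18 genes that did not pass. It lay within the interval for the other 9, *Irf7* and *Bst2* included. These intervals rest on the spread between these libraries, which may be technical. *Nlrc5*, the activator of class I genes, had 3 and 5 reads in the groups, a ratio of 1.13 when corrected for depth.

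Among the antiviral effectors *Ifit2* rose. *Ifit2* (chr19:34550550-34576534 of GRCm38.p6), whose protein binds RNA and limits translation, had 59.6, 58.5 and 45.3 normalized counts in control and 105, 80.9 and 115 in the Cre-labelled libraries. The Cre-labelled values all exceeded the control values. The means were 54.5 ± 7.95 and 100.03 ± 17.3 normalized counts (SD, n = 3), a 1.84-fold difference (log2 fold change 0.86 ± 0.23 (SE), adjusted p = 0.0384 with limma). The neighbouring *Ifit1* and *Ifit3* had 1 read each, and *Ifit2* shared no 50-base stretch with another gene. Adjusted p-values on the recovered reads were 0.0391 with edgeR and 0.0247 with DESeq2. The limma call was lost without control replicate 1 (0.101), 1_1 (0.0845) or 2 (0.141) and without Cre replicate 2 (0.0523) or 3 (0.0875), with control libraries 1 and 1_1 averaged (0.0848) and without the filter on low genes (0.0501).

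*Bst2* (chr8:71534255-71537472), or tetherin, which holds budding virus particles at the cell surface, had 119, 142 and 216 normalized counts in control and 44.3, 103 and 85.1 in the Cre-labelled libraries. The groups did not overlap, with control replicate 2 highest and Cre replicate 2 lowest. The means were 159 ± 50.6 and 77.6 ± 30.2 normalized counts (SD, n = 3) (log2 fold change -1.07 ± 0.32 (SE), adjusted p = 0.056 with limma). The adjusted p was 0.0598 with edgeR and 0.0126 with DESeq2, so the call differed between tools. Without Cre replicate 2 the log2 fold change was -0.71, and without control replicate 2 it was -0.82.

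The other 4 tested effectors overlapped between the groups. *Eif2ak2*, the kinase PKR, which stops translation when it binds viral RNA, had 232, 179.9 and 189 normalized counts in control and 234, 207 and 222 in the Cre-labelled libraries (log2 fold change 0.15, 95% interval from -0.21 to 0.50). *Rsad2*, which makes a chain-terminating nucleotide, had a log2 fold change of -0.29 (95% interval from -1.11 to 0.53). For *Mx2*, a relative of *Mx1* that shares 6.71% of its 50-base stretches with it, the value was 0.13 (95% interval from -0.74 to 1.01). *Usp18*, the protease that removes ISG15, had 0.21 (95% interval from -0.78 to 1.21), with its highest level, 29.5 normalized counts, in Cre replicate 3.

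Of the other interferon-induced genes 0 of the 3 tested passed with limma, edgeR or DESeq2, and 0 had an unadjusted p-value under 0.05 with limma. *Ifi27* had means of 168 ± 38.3 and 169 ± 30.0 normalized counts (SD, n = 3) in control and Cre-labelled libraries. *Ifi35* had 25.2 ± 1.33 and 18.9 ± 4.47 normalized counts (SD, n = 3), and *Parp14* 10.8 ± 1.06 and 16.2 ± 3.97 normalized counts (SD, n = 3). *Cxcl10*, a chemokine that draws T cells, was under the limit and had 7, 5 and 4 reads in control and 3, 0 and 0 in the Cre-labelled libraries, although these were the deeper ones. That is 16 of 26434933 reads against 3 of 38931500, a ratio of 0.127 with an exact 95% interval from 0.0238 to 0.445 that covers counting error only. Without the filter on low genes its limma adjusted p was 0.0507. Of the 15 genes under the limit 0 passed there with limma, and 1, *Cxcl10*, had an unadjusted p-value under 0.05.

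Among the antigen presentation genes *B2m* rose, while the heavy chains *H2-K1* and *H2-D1*, which it joins, and the peptide transporter gene *Tap1* overlapped between the groups. *B2m* (chr2:122147687-122153082) had 566, 589.5 and 625 normalized counts in control and 803, 936 and 903 in the Cre-labelled libraries. No Cre-labelled value was below a control value. The means were 594 ± 29.9 and 880.3 ± 69.3 normalized counts (SD, n = 3), a 1.48-fold difference (log2 fold change 0.57 ± 0.12 (SE), adjusted p = 0.0144 with limma). Adjusted p-values were 0.0129 with edgeR and 0.00404 with DESeq2. The limma call was lost without control replicate 1 (0.0902) or 1_1 (0.0604), without Cre replicate 2_2 (0.0718) and with control libraries 1 and 1_1 averaged (0.0664). The log2 fold change stayed between 0.52 and 0.63 over the 16 alternatives.

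*H2-K1* (chr17:33996012-34000619) had 307, 320.4 and 363 normalized counts in control and 332, 214 and 333 in the Cre-labelled libraries. Cre replicate 2_2, which had the highest *B2m*, had the lowest *H2-K1* (log2 fold change -0.20, 95% interval from -0.60 to 0.21). *H2-D1* (chr17:35263094-35267497) had 101, 89.2 and 117 normalized counts in control and 177, 110.2 and 91.3 in the Cre-labelled libraries, with Cre replicate 2 the highest (log2 fold change 0.25, 95% interval from -0.30 to 0.80). *H2-K1* shared 7.29% and *H2-D1* 12.8% of their 50-base stretches with other genes, mostly of class I, and *B2m* shared none, so that the heavy chain values are less certain. *Tap1* had 55.1, 70.2 and 70.7 normalized counts in control and 83.8, 50.8 and 102 in the Cre-labelled libraries (log2 fold change 0.22, 95% interval from -0.39 to 0.83).

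The ratio of *B2m* to *H2-K1*, chosen after the values were seen, was 1.84, 1.84 and 1.72 in control and 2.41, 4.37 and 2.71 in the Cre-labelled libraries. The groups did not overlap, and a two-sided exact permutation test gave p = 0.1, the lowest that 3 against 3 libraries can reach, or 0.3 adjusted over the 3 ratios computed. The ratios of *B2m* to *H2-D1* and to *Tap1* gave p = 0.4 and p = 0.5 in the same exact test.

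**Figure D3:**
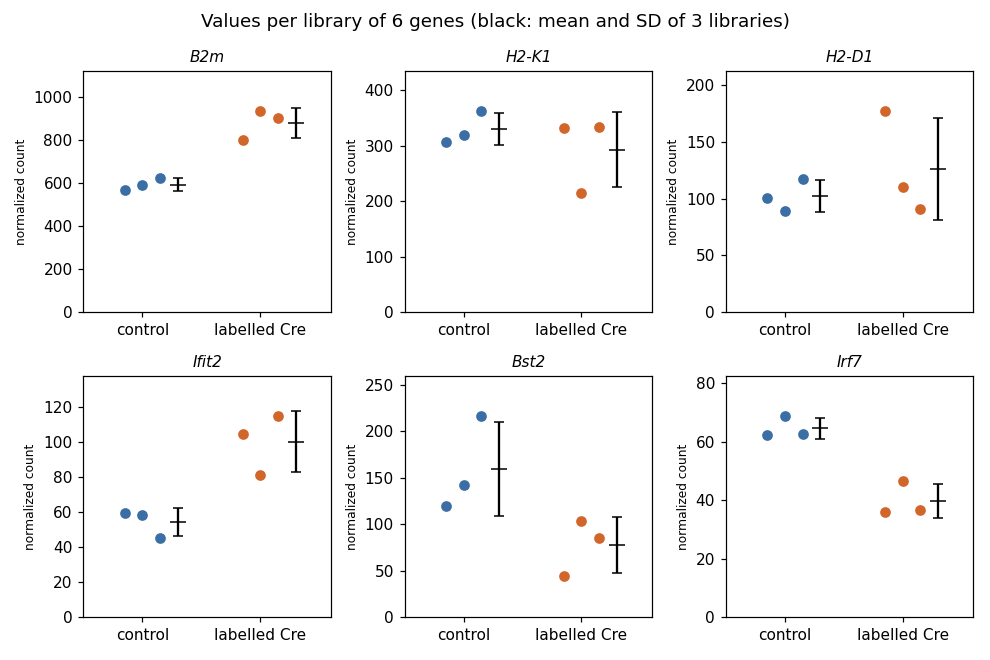
Normalized counts per library of *B2m*, *H2-K1*, *H2-D1*, *Ifit2*, *Bst2* and *Irf7*, with the mean and SD of 3 libraries in black. The groups do not overlap for *B2m*, *Ifit2*, *Bst2* and *Irf7*, and overlap for *H2-K1* and *H2-D1*.

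Other genes of the pathway were taken from a list of 103 genes, of which 54 were tested. With limma 3 of them rose and 3 fell past the threshold, 11.1% of those tested against 9.96% of all genes. Of the 9 interferon ligand genes, 8 had no read in any library and *Ifnk* never had more than 3. Of the 9 tested genes on the list of receptors and their signalling partners, 0 passed with limma and 1, *Ifnar2*, had an unadjusted p-value under 0.05. Over all tested genes 25.5% were under that unadjusted limit. *Ifnar1* had means of 417 ± 40.6 and 397 ± 58.4 normalized counts (SD, n = 3) in control and Cre-labelled libraries, and *Ifnar2* 366 ± 26.7 and 473 ± 7.14 normalized counts (SD, n = 3) (adjusted p = 0.091 with limma). Of 10 further tested genes of class I presentation, the heavy chains *H2-T22* and *H2-Q7* among them, 0 passed with limma and 1, *Calr*, had an unadjusted p-value under 0.05. That 1 of 10 also stands beside 25.5% of all tested genes.

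The genes that fell were *Tmem173*, *Mb21d1* and *Samhd1*. *Tmem173*, the adaptor STING, had 746, 704 and 814 normalized counts in control and 348, 371 and 432 in the Cre-labelled libraries. Each control value was above each Cre-labelled value (log2 fold change -0.98 ± 0.13 (SE), adjusted p = 0.00138 with limma). *Mb21d1*, the DNA sensor cGAS that makes the ligand of STING, had 158, 154 and 193 normalized counts in control and 76.9, 77.5 and 65.4 in the Cre-labelled libraries, again without overlap (log2 fold change -1.19 ± 0.19 (SE), adjusted p = 0.00334 with limma). Both passed in all 16 alternatives, with adjusted p-values of at most 0.015 for *Tmem173* and 0.0283 for *Mb21d1*. *Samhd1*, which degrades deoxynucleotides, had 388, 399 and 397 normalized counts in control and 278, 295 and 287 in the Cre-labelled libraries (log2 fold change -0.46 ± 0.13 (SE), adjusted p = 0.0454 with limma). *Samhd1* passed in 5 of the 16 alternatives and in none of the fits without 1 library (limma adjusted p from 0.0511 to 0.156), while over the 16 its log2 fold change stayed between -0.48 and -0.44.

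The genes that rose were *Ifitm3*, *Tdrd7* and *Tlr3*. *Ifitm3*, a membrane protein that blocks the entry of enveloped viruses, had 59.6, 65.8 and 57.3 normalized counts in control and 149, 199 and 198 in the Cre-labelled libraries. The groups were apart (log2 fold change 1.55 ± 0.20 (SE), adjusted p = 0.000901 with limma). *Tdrd7*, a protein of RNA granules, had 127, 126 and 92.0 normalized counts in control and 312, 284 and 226 in the Cre-labelled libraries (log2 fold change 1.25 ± 0.19 (SE), adjusted p = 0.00283 with limma). Both passed in all 16 alternatives. *Tlr3*, the endosomal receptor of viral RNA, had 95.4, 101 and 105 normalized counts in control and 169.7, 148 and 172 in the Cre-labelled libraries (log2 fold change 0.69 ± 0.17 (SE), adjusted p = 0.0286 with limma). The call of *Tlr3* was lost without any 1 library other than Cre replicate 2, with an adjusted p of up to 0.125 without control replicate 1, and with control libraries 1 and 1_1 averaged (0.0913). *Ifitm2*, the relative of *Ifitm3*, was named after its values were seen and had 131, 108 and 116 normalized counts in control and 69.9, 74.0 and 93.1 in the Cre-labelled libraries (log2 fold change -0.58 ± 0.20 (SE), adjusted p = 0.0935 with limma).

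**Figure D4:**
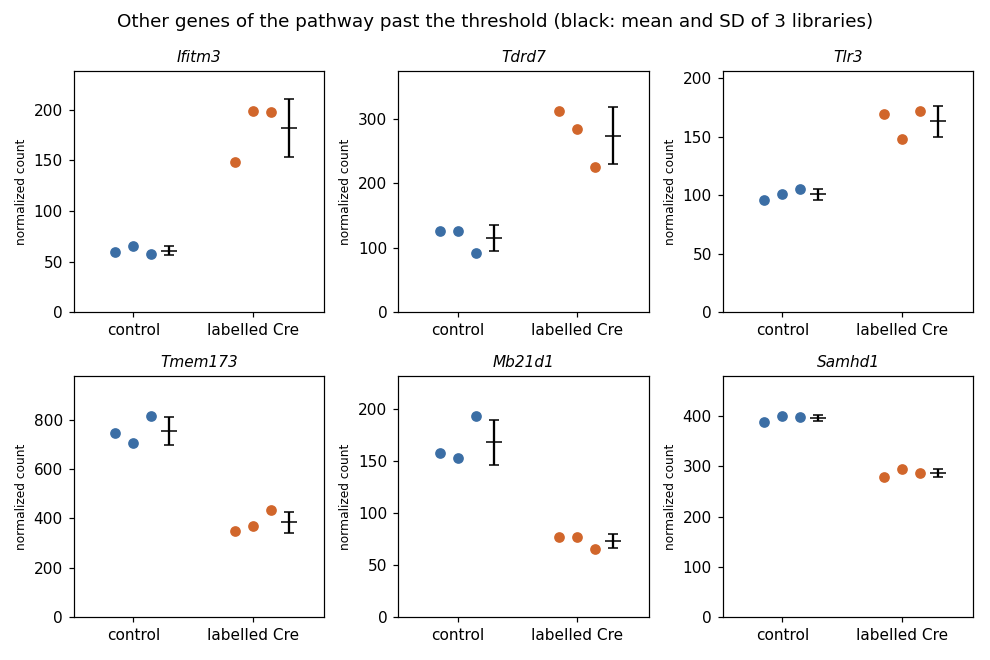
Normalized counts per library of the 6 other pathway genes past an adjusted p-value of 0.05, with the mean and SD of 3 libraries in black. *Ifitm3*, *Tdrd7* and *Tlr3* are higher and *Tmem173*, *Mb21d1* and *Samhd1* lower in each Cre-labelled library than in any control library.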

How the data were processed

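RNA-seq libraries of NSCs were analyzed, 3 infected with GFP and 3 with Cre, grouped by the sample labels. The authors deposited normalized counts, a signal in which reads on a gene are divided by the size factor of the library. The processing notes of the submitters name STAR 2.7, DESeq2 and mm10, while the methods of the paper name TopHat with mm9 and mm10. The read counter, strand setting and annotation are not given in the sources used here. The authors' own log2 fold changes, p-values and test scores, also deposited, were not used. Of 53379 genes, 1 lacked a value in 1 library and was left out.

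All values (100%) could be turned back into whole reads, with a tolerance of 0.001. The main test was limma 3.58.1 (R 4.3.3, lmFit and eBayes, trend) on log2(value + 1), which understates changes of low genes, over the 14840 genes whose mean was at least 10, with Benjamini-Hochberg adjustment and a threshold of 0.05. The 16 alternatives were edgeR 4.0.16 and DESeq2 1.42.0 (recovered reads), a pseudocount of 0.5 or 5, no filter, a minimum mean of 50, TMM or total count scaling, averaging control libraries 1 and 1_1 or Cre libraries 2 and 2_2, and leaving out each library. A fit with the replicate number as a block was added after seeing the data and is not counted among the 16. On simulated counts with 200 of 14840 genes changed 2-fold, limma recovered 84% of these, and 62.5% of the 72 with a mean of 10 to 100. Of its calls there 6.67% were false. Every simulated gene had the same dispersion of 0.02, so the recovery does not hold for genes whose libraries spread more, as those of *Bst2* did. Intervals are at 95%.

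The members and lists were chosen with earlier results of these data known. All list genes with a mean of at least 10 are given, and of the other pathway genes those past the threshold and a few stated by role, and 1 gene is not reported here. Exon lengths and shared 50-base stretches came from GENCODE M1, and positions and promoters from RefSeq (GRCm38.p6), with a window for 25 of the 35 genes. Python 3.11.15, scipy 1.17.1 and matplotlib 3.10.9 were used.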

Additional observations from a re-analysis of the deposited data

How the results depend on the processing

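With 1 library left out, 0 to 1 list genes were higher and 0 were lower with limma. In the same settings 5 to 8 of 20 did not overlap between groups, against 36.5% to 45.5% of all tested genes, and the 8 without Cre replicate 2_2 stand beside 37.6%. With control libraries 1 and 1_1 averaged 0 genes were higher, and without the filter on low genes 1 was. A count of 1 lower gene, *Bst2* each time, came from DESeq2, from no filter and from Cre libraries 2 and 2_2 averaged. edgeR and DESeq2 give no count of overlap of their own. Over the 16 alternatives the median of the list ran from 0.05 (without Cre replicate 3) to 0.21 (without the filter, over 33 genes). Both lie within 0.11 of 0.10. The 0.11 is the SD over libraries of the median deviation of the tested list genes from their group means. It is not the error of a median log2 fold change. The counts of other pathway genes changed by at most 1.5 times. Of the 20 tested list genes 12 kept their sign in those of the 16 that tested them. The other 8, and *Ifnar1*, did not pass in any alternative and changed sign. With 1 library left out their log2 fold changes ran from -0.0219 to 0.45 for *H2-D1*, from -0.30 to 0.0148 for *H2-K1*, from -0.18 to 0.18 for *Ifi27*, from -0.16 to 0.0459 for *Ifnar1*, from -0.0608 to 0.19 for *Irf3*, from -0.20 to 0.088 for *Irf9*, from -0.12 to 0.42 for *Mx2*, from -0.20 to 0.0806 for *Stat2* and from -0.16 to 0.47 for *Usp18*. With control libraries averaged *Ifi27* was at -0.035 and *Irf9* at 0.0099, with Cre libraries averaged *Ifi27* was at -0.057, and *Irf9* was at 0.00087 with edgeR and 0.0022 with DESeq2. The causes were not tested. Over all genes 558 to 2396 passed with 1 library left out, 1483 with edgeR and 1755 with DESeq2, against 1478. The shallowest library, with 7510615 reads, limits what can be seen of the 15 genes under the limit. A fit with a replicate block, chosen after seeing the data, took 1_1 and 2_2 as numbers 1 and 2. The groups share only number 2, so whether the numbers pair the libraries could not be checked, and the difference rests on control replicate 2 against Cre replicates 2 and 2_2, with 180 genes past the threshold. With this replicate block the median of the list was -0.027, and 0 list genes were higher and 0 lower. The limma adjusted p there was 0.266 for *B2m* and 0.189 for *Ifit2*. Of the other pathway genes 1 was higher (*Tdrd7*) and 1 lower (*Tmem173*). *Ifitm3* (0.0512), *Mb21d1* (0.0616), *Tlr3* (0.329) and *Samhd1* (0.298) did not pass in the replicate block fit. Its log2 fold changes had the other sign for *Ifnar1* (0.015), *Irf3* (-0.081), *Irf9* (0.20), *Tap1* (-0.11) and *Usp18* (-0.68), none of which passed.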

Other observations

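Class II molecules, which show peptides to helper T cells, were barely read, and 1 of their 7 presentation genes was tested. *H2-DMa*, which helps to load peptides, had 5.51, 8.78 and 12.003 normalized counts in control and 18.7, 13.8 and 28.7 in the Cre-labelled libraries, without overlap (log2 fold change 1.13 ± 0.46 (SE), adjusted p = 0.148 with limma). *H2-Ab1*, a chain of the molecule itself, had 5 of 26434933 reads in control and 29 of 38931500 in the Cre-labelled libraries, a ratio of 3.94 with an exact 95% interval from 1.51 to 13.0 that covers counting error only, and its limma adjusted p without the filter was 0.217. Its partner chain *H2-Aa* was at 0 in every library, and the invariant chain *Cd74* had 1 read in all. These genes were singled out after their values were seen.

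*Csf1r*, the receptor that microglia depend on, had 201, 154 and 195 normalized counts in control and 162, 264 and 239 in the Cre-labelled libraries, while *Tyrobp*, *C1qa* and *Tmem119* had no read. *Irf5*, a factor best known from immune cells, had 1476, 1749.5 and 1764 normalized counts in control and 1386, 1422 and 1339 in the Cre-labelled libraries, without overlap (log2 fold change -0.26, adjusted p = 0.188 with limma). *Csf1r*, *P2ry12*, *Cd68* and *Irf5* were singled out after their values were seen.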
